A study of Mus musculus with 6 samples.

Results

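De novo lipogenesis, the making of fatty acids from acetyl-CoA, was followed through 10 genes in brown adipose tissue, the heat-producing fat of small mammals. They were chosen by symbol, with earlier results of these data known: Slc25a1, Acly, Acss2, Acaca, Acacb, Fasn, Me1, Thrsp, Srebf1 and Mlxipl. All 10 were present among the 45777 genes of the count table, and all 10 entered the test. RNA came from male wild-type C57Bl6/J mice injected into the peritoneum over 2 weeks with Rb2, a ginsenoside (a saponin of ginseng), or with PBS, the saline vehicle. Each group held 3 mice, and no genotype or other agent set the groups apart. The labels do not state age, dose or injection schedule. Libraries are called Rb2 1, 3 and 4 and PBS 1, 2 and 4 after the table's columns.

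In this pathway mitochondrial citrate leaves through the citrate carrier and is cleaved to acetyl-CoA in the cytosol. Acetyl-CoA carboxylase turns it into malonyl-CoA, and fatty acid synthase builds palmitate from both, using NADPH. SREBP-1, which responds to insulin and to liver X receptors (LXR), and ChREBP, which responds to glucose, are the transcription factors best known for driving these enzymes. Brown fat makes fatty acids while it burns them.

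The 10 genes lie on 6 chromosomes, with Acly, Acaca, Fasn and Srebf1 all on chromosome 11. RefSeq promoter windows (GRCm38.p6, the assembly that mm10 stands for, from 250 bases before to 50 after an annotated start) were found for all 10, 14 windows in all. They were searched on both strands for CACGTG (the E-box), TCACNCCAC (a sterol element) and CCAAT (the NF-Y box). Also searched was a pair of exact E-boxes 5 bases apart (the spacing of pairs that ChREBP is known to bind). A last pattern was GGTTACT followed after 2 bases by CGG (a core of known LXR elements, added after these windows had been seen). The 4 windows printed here are those of Slc25a1, Thrsp and Fasn and of the most downstream of the 3 Srebf1 starts. Slc25a1 and Thrsp had the smallest p-values of the 10, and the Fasn and Srebf1 windows hold the LXR core; Thrsp, Fasn and Srebf1 were picked after the windows had been seen. Each is given 5′ to 3′ on the gene's own strand (minus in all 4), with motif matches in capitals.
Slc25a1, chr16:17928170-17928469: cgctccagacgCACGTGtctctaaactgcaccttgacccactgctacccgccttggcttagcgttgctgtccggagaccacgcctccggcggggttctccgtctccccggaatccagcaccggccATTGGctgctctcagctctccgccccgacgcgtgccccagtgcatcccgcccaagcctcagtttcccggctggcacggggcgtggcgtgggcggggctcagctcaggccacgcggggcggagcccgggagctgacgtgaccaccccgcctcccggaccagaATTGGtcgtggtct
Thrsp, chr7:97417501-97417800: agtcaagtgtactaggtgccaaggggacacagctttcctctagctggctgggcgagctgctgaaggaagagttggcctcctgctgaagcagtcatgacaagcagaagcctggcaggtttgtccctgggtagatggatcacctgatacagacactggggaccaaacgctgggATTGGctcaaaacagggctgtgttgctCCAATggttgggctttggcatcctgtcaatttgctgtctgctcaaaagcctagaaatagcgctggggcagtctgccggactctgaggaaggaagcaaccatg
Fasn, chr11:120824498-120824797: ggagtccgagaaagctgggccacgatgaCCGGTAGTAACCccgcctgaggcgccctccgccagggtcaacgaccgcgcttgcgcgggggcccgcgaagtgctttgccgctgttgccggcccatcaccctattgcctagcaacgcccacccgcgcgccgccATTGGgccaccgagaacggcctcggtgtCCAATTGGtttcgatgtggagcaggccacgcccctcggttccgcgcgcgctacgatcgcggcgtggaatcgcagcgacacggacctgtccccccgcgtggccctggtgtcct
Srebf1, chr11:60210422-60210721: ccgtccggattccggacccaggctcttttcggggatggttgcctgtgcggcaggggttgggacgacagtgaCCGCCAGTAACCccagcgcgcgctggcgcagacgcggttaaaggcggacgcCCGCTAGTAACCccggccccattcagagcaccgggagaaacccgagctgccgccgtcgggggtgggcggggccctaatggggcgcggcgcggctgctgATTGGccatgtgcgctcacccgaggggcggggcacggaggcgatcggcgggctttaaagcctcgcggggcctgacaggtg

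The Slc25a1 window holds an E-box, and the other E-box among the 14 windows is in Mlxipl; an E-box is in 7.15% of all 32851 windows that RefSeq gave. Capitals in the Thrsp window are CCAAT boxes on either strand, as are the runs beginning ATTGG or ending CCAAT in the other windows, and in Fasn CCAATTGG is a pair of overlapping boxes. CCAAT was present in 10 of the 14 windows, those of 9 genes, and in 37.4% of all windows. The LXR core occurs in the Fasn window and at 2 places in the Srebf1 window, in both read on the opposite strand, and in 9 windows of the 32851. The sterol element was matched in 1 of the 14 windows, a Mlxipl one, and in 1.24% of all. The paired E-box, searched as exact copies, was in none of the 32851 windows. Its absence from the 14 therefore says nothing about ChREBP. Since the LXR pattern was added after the windows were seen, its rarity elsewhere supports nothing. A match is a run of letters and not a shown binding site.

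Total counts per library ran from 83642183 to 92666780, of which the mitochondrial genome took 35.8% to 42.4%. The 10 genes had between 9825 and 1224779 counts per library, so counting error alone is at most 1.01% of a value. Acly, Acaca, Srebf1, Acss2 and Me1 overlap other annotated genes, all with far fewer counts. Levels are given as CPM, counts scaled to a common library size with TMM factors. Over all 16707 genes tested, 890 were higher and 853 lower with Rb2 (5.33% and 5.11% of those tested; quasi-likelihood F test of edgeR, p adjusted by Benjamini-Hochberg, threshold 0.05), which is 51.1% higher among the calls. That share was 38.7% with library size alone as scaling and 61.3% when GC content and transcript length entered as an offset.

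None of the 10 lipogenic genes passed the edgeR threshold in either direction, where 10.4% of all genes tested did (5.33% higher, 5.11% lower). Unadjusted p was under 0.05 for 3 of the 10, Thrsp, Slc25a1 and Acss2, all at lower values with Rb2, which is the share found over all genes tested (5020 of 16707, 30%). DESeq2's Wald test called these 3, against 21.5% of the genes to which it gave an adjusted p, and limma-voom called none of the 10, against 9.74% of genes. The same 3 were the ones whose Rb2 libraries all lay below their PBS libraries, against 17.6% of all genes tested that separated downward and 35.8% that separated in either direction. Of the 10 fitted changes 8 were below 0 and 2 above. Their median log2 fold change was -0.52, against -0.01 over all genes tested.

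**Figure D1:**
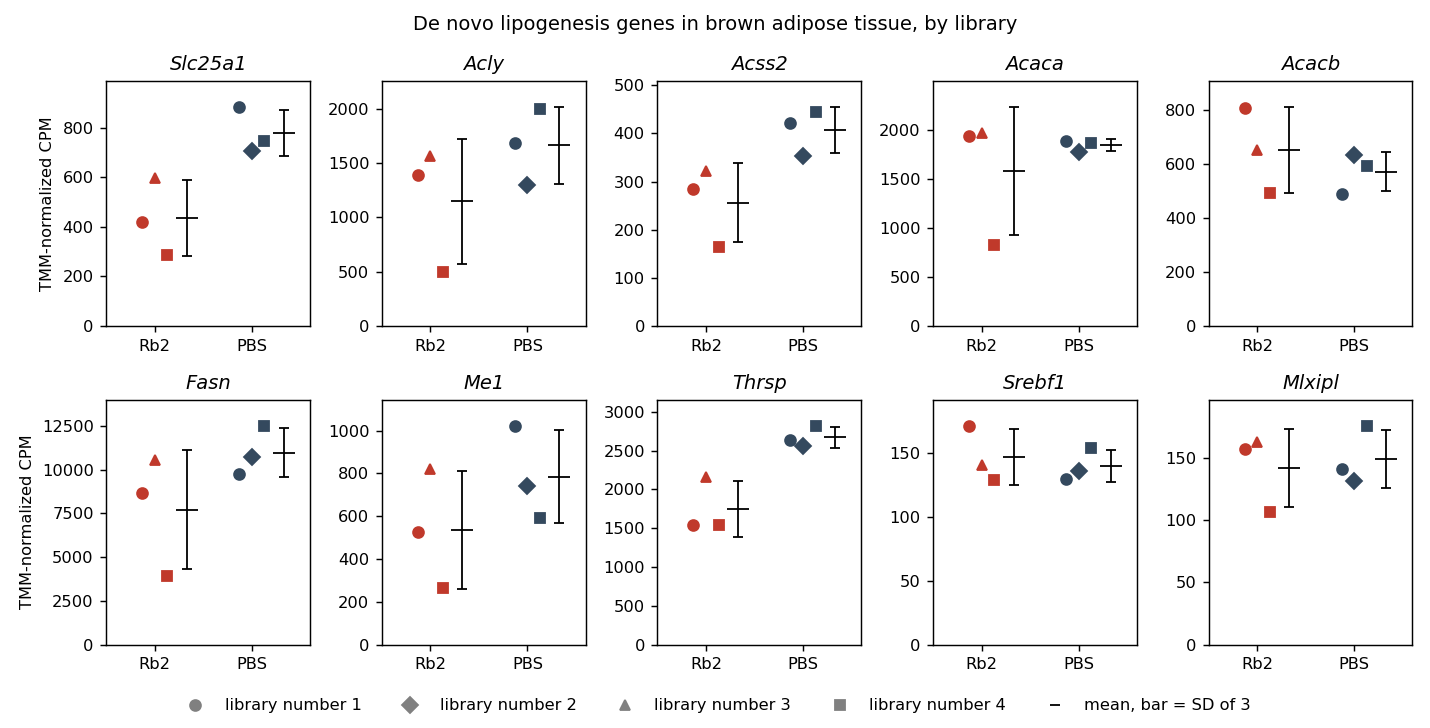
TMM-normalized CPM (vertical axis, from 0) of each gene in the 3 Rb2 libraries (red, left) and the 3 PBS libraries (dark, right), with symbols for the library number and bars for mean ± SD. Groups are apart in Slc25a1, Acss2 and Thrsp, and Rb2 4 (red square) is the lowest Rb2 library in all 10 panels.

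Slc25a1 is the mitochondrial citrate carrier (gene 13358; chromosome 16, 17925211 to 17928219). It was at 422, 596 and 288 CPM in Rb2 1, 3 and 4, against 883, 706 and 745 CPM in PBS 1, 2 and 4. Every Rb2 library was below every PBS library. The fitted fold was 0.559 (95% interval 0.380 to 0.823; log2 fold change -0.84 ± 0.25 SE), the lowest of the 10, with adjusted p = 0.0606. It passed the threshold with a count minimum of 50 (adjusted p = 0.0424), with library size alone (adjusted p = 0.0411), in DESeq2 (adjusted p = 0.00226) and without Rb2 3 (-1.13, adjusted p = 0.0395). With the GC and length offset it was at -0.45 (adjusted p = 0.354).

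Acly encodes ATP-citrate lyase, which cleaves the exported citrate (gene 104112; chromosome 11, 100476352 to 100528000). Its level was 1389.8, 1563 and 494 CPM in Rb2 1, 3 and 4, against 1685, 1299 and 2000.4 CPM in PBS 1, 2 and 4. Rb2 1 and Rb2 3 lay within the PBS range and Rb2 4 far below it. The log2 fold change of -0.53 ± 0.43 SE had an interval from -1.56 to 0.49 (adjusted p = 0.443), and without Rb2 4 it was -0.17.

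Acss2, cytosolic acetyl-CoA synthetase, makes acetyl-CoA from acetate and so bypasses citrate (gene 60525; chromosome 2, 155518043 to 155562743). It had 284, 321 and 164 CPM in Rb2 1, 3 and 4, against 422, 353 and 445 CPM in PBS 1, 2 and 4. The groups did not overlap, with Rb2 3 and PBS 2 closest to each other. The fold was 0.631 (95% interval 0.436 to 0.914; log2 fold change -0.66 ± 0.24 SE, adjusted p = 0.0997). DESeq2 called it (adjusted p = 0.0162). Without Rb2 4 it was at -0.43 (adjusted p = 0.110).

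Acaca and Acacb encode the 2 acetyl-CoA carboxylases. ACC1, from Acaca (gene 107476; chromosome 11, 84129635 to 84401651), is cytosolic and supplies malonyl-CoA for synthesis, while ACC2, from Acacb (gene 100705; chromosome 5, 114146321 to 114250761), sits at mitochondria, where its malonyl-CoA inhibits fatty acid import. Acaca was at 1939.9, 1972 and 825 CPM in Rb2 1, 3 and 4, against 1892, 1778 and 1867 CPM in PBS 1, 2 and 4. Rb2 1 and Rb2 3 lay above all PBS libraries and Rb2 4 below them. Its log2 fold change was -0.23 ± 0.30 SE (adjusted p = 0.649), and 0.08 without Rb2 4.

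Acacb had 811, 655 and 494 CPM in Rb2 1, 3 and 4, against 491, 633 and 596 CPM in PBS 1, 2 and 4. It was the 1 gene of the 10 with its lowest value in a PBS library, PBS 1, and the groups overlapped. The log2 fold change was 0.19 ± 0.20 SE, with an interval from -0.26 to 0.63 (adjusted p = 0.554). It was 0.0048 without Rb2 1, 0.089 without PBS 1, 0.35 without Rb2 4 and 0.46 under the offset for GC and length (adjusted p = 0.145). Per kilobase of transcript, Acacb made up 31.2%, 26.4% and 39.3% of the sum of both carboxylases in Rb2 1, 3 and 4, against 21.9%, 27.8% and 25.7% in PBS 1, 2 and 4. The mean difference of 7.17 percentage points gave p = 0.2 in a two-sided exact permutation test, where 3 libraries against 3 can reach 0.1 at best. It was 3.66 points without Rb2 4.

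Fasn, fatty acid synthase, makes palmitate in the last step (gene 14104; chromosome 11, 120805958 to 120825166). Per kilobase of transcript it ranked 27 among the nuclear genes tested that have a length. It stood at 8676, 10549.7 and 3921 CPM in Rb2 1, 3 and 4, against 9734, 10708 and 12519 CPM in PBS 1, 2 and 4. Rb2 3 was inside the PBS range, Rb2 1 just under it and Rb2 4 far below. The log2 fold change was -0.51 ± 0.33 SE with an interval from -1.27 to 0.25 (adjusted p = 0.333). It was -0.20 without Rb2 4 and -0.19 with the GC and length offset.

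Me1, cytosolic malic enzyme, yields NADPH for fatty acid synthase (gene 17436; chromosome 9, 86581363 to 86695914). Its values were 525, 818 and 263 CPM in Rb2 1, 3 and 4, against 1022, 742 and 591 CPM in PBS 1, 2 and 4. The groups overlapped, and Me1 had the widest PBS spread of the 10, with a coefficient of variation of 27.9%. The log2 fold change was -0.55 ± 0.42 SE (interval -1.58 to 0.47, adjusted p = 0.424), and -0.23 without Rb2 4.

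Thrsp, also called Spot 14, is a small protein induced by thyroid hormone and carbohydrate that promotes lipogenesis (gene 21835; chromosome 7, 97412933 to 97417550). It had 1542, 2165 and 1539.9 CPM in Rb2 1, 3 and 4, against 2633, 2561 and 2819 CPM in PBS 1, 2 and 4. All Rb2 libraries were below all PBS libraries, and Rb2 1 and Rb2 4 were nearly equal. The fold was 0.655 (95% interval 0.496 to 0.863; log2 fold change -0.61 ± 0.18 SE, adjusted p = 0.0567). Like Slc25a1 it passed with a count minimum of 50 (adjusted p = 0.0419), with library size alone (adjusted p = 0.0491), in DESeq2 (adjusted p = 0.00244) and without Rb2 3 (adjusted p = 0.048), and not with the offset (-0.42, adjusted p = 0.164).

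**Figure D2:**
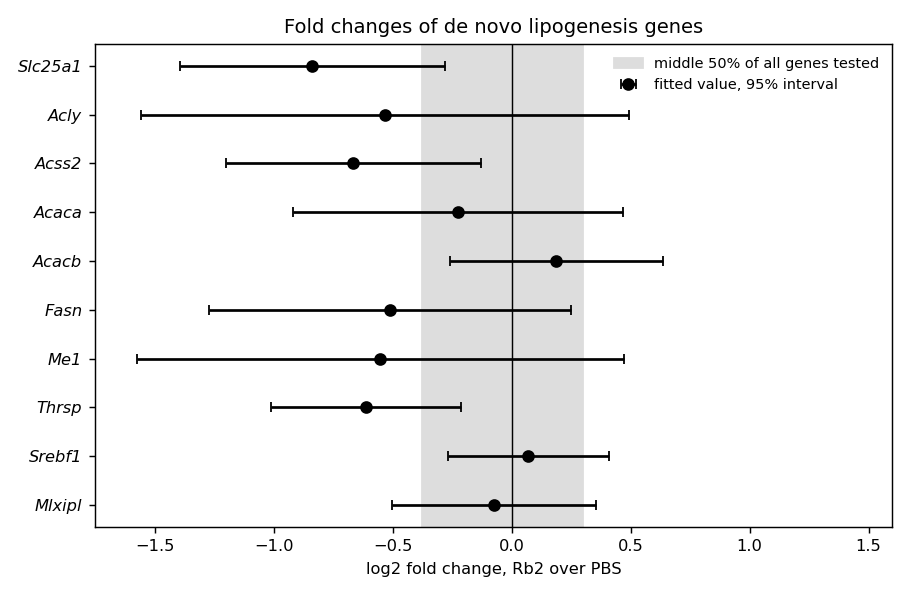
Fitted log2 fold change, Rb2 over PBS (horizontal axis), of each gene with its 95% interval, over a grey band that holds the middle 50% of all genes tested (-0.38 to 0.30). Intervals of Slc25a1, Acss2 and Thrsp end below 0, and those of the other 7 include 0.

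Srebf1 encodes SREBP-1 (gene 20787; chromosome 11, 60199084 to 60224186), and its forms 1a and 1c cannot be told apart in counts per gene. It was at 171, 140.1 and 128 CPM in Rb2 1, 3 and 4, against 129.7, 135 and 153 CPM in PBS 1, 2 and 4. The ranges overlapped, and the log2 fold change of 0.07 ± 0.15 SE had an interval from -0.27 to 0.41 (adjusted p = 0.786); it was -0.02 with library size alone and 0.36 under the offset for GC and length (adjusted p = 0.173). Mlxipl encodes ChREBP (gene 58805; chromosome 5, 135089890 to 135139768), whose alpha and beta forms are likewise summed.

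Mlxipl had 157, 163 and 106 CPM in Rb2 1, 3 and 4, against 141, 131 and 176 CPM in PBS 1, 2 and 4. Rb2 4 was lowest and the groups overlapped. Its log2 fold change was -0.07 ± 0.19 SE (interval -0.50 to 0.35, adjusted p = 0.825), and 0.17 with the GC and length offset. Per kilobase, the log2 ratio of Mlxipl to Srebf1 averaged 0.19 ± 0.25 in Rb2 and 0.34 ± 0.12 in PBS libraries (SD, n = 3 each; two-sided exact permutation p = 0.5).

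Levels can be compared between genes per kilobase of the longest GENCODE transcript. On that scale Thrsp led with 1249 ± 257 CPM per kilobase in Rb2 and 1908 ± 95.2 in PBS libraries (SD, n = 3 each). Fasn followed with 768 ± 340 in Rb2 and 1093 ± 141 in PBS libraries, with SD ranges that overlapped those of Thrsp in Rb2 but not in PBS libraries. Slc25a1 (261 ± 92.5 in Rb2, 467 ± 55.8 in PBS), Acly (260 ± 130 and 375 ± 79.3), Me1 (163 ± 84.3 and 239 ± 66.5) and Acaca (166 ± 68.7 and 194 ± 6.29) came next, and the SD ranges of neighbours in this run overlapped in either group. Acss2 (71.1 ± 22.7 in Rb2, 113 ± 13.2 in PBS) and Acacb (74.3 ± 18.1 and 65.2 ± 8.36) stood in opposite order in the groups, with SD ranges that overlapped in Rb2 libraries. The regulators were lowest, Mlxipl at 39.2 ± 8.60 in Rb2 and 41.3 ± 6.44 in PBS libraries and Srebf1 at 34.1 ± 5.14 and 32.5 ± 2.87, with SD ranges that overlapped in either group.

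For all 10 genes the SD of log2 CPM was larger over the Rb2 libraries than over the PBS libraries. Rb2 4 was the lowest Rb2 library for all 10 genes, where it was so for 44.1% of the 7422 genes with a mean of at least 10 CPM and a count in every library, and the lowest of all 6 for 9 of them. Its value was 0.33 times the mean of Rb2 1 and Rb2 3 for Acly, 0.39 for Me1, 0.41 for Fasn and 0.42 for Acaca. Ratios of 0.5 or less were found in 0.822% of those genes, and their median ratio was 0.96. Slc25a1 (0.57), Acss2 (0.54), Acacb (0.67) and Mlxipl (0.66) were also lower there, and Thrsp (0.83) and Srebf1 (0.82) least so. These ratios were looked at after the values were seen and carry no test.

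The SD of log2 CPM over the Rb2 libraries was 0.91 for Acly, 0.82 for Me1, 0.76 for Fasn and 0.72 for Acaca, each larger than that of at least 98.7% of the 7422 genes (median 0.18). Over the PBS libraries Acaca had an SD of 0.05, larger than that of 9.42% of genes (median 0.13), and Fasn one of 0.18. Srebf1 was near typical, at 0.21 in Rb2 and 0.13 in PBS libraries. Without Rb2 4 the median log2 fold change of the 10 genes was -0.18, and without Rb2 3 it was -0.80.

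**Figure D3:**
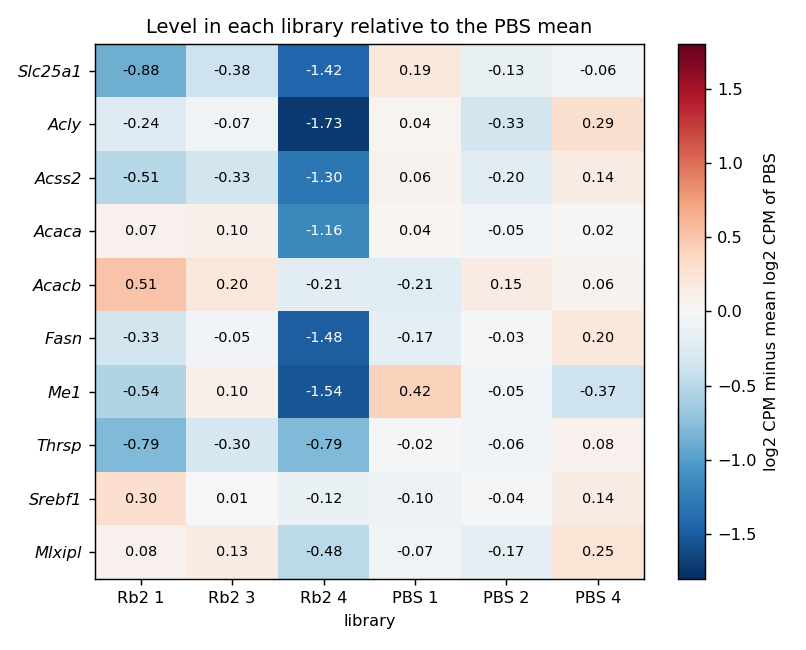
Log2 CPM of each gene (rows) in each library (columns) minus its mean over the PBS libraries, as colour and printed value, blue below and red above. The Rb2 4 column is blue throughout, down to -1.73 in Acly, while Srebf1 (-0.12) and Acacb (-0.21) are close to the PBS mean there.

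Other measures were read alongside these values. The brown adipocyte markers summed to 12575 to 16939 CPM in Rb2 and 15622 to 16820.5 CPM in PBS libraries, and Rb2 4 stood at 16189.8. Of the 12 markers 2 were called, both lower (Prdm16 and Elovl3), where 5.11% of all genes tested were called lower. Unadjusted p was under 0.05 for 5 of the 12, against 30% of all genes tested. Besides the 2 called these were Dio2 (-1.38, adjusted p = 0.133) and Cox8b (-0.65, adjusted p = 0.0751), both lower with groups apart, and Pparg, which was higher. Dio2 and Cox8b were named after their values were seen. Adipoq, an adipocyte hormone, had 822, 899 and 973 CPM in Rb2 1, 3 and 4, against 897, 751 and 630 CPM in PBS 1, 2 and 4. Plin1, which coats lipid droplets, was named after its value was seen, since it went the other way in Rb2 4: it had 422, 384 and 283 CPM in Rb2 1, 3 and 4, against 328, 345 and 385 CPM in PBS 1, 2 and 4. Pparg, the transcription factor of adipocyte identity, had 239, 213 and 168 CPM in Rb2 1, 3 and 4, against 156, 159 and 166 CPM in PBS 1, 2 and 4, apart but not past the threshold (0.37, adjusted p = 0.150). Ucp1, the uncoupling protein that defines brown fat, had 2928, 4687 and 3406 CPM in Rb2 1, 3 and 4, against 3789.9, 3388 and 4770.2 CPM in PBS 1, 2 and 4, and the groups overlapped. In whole tissue, fewer cells of a type and less RNA per cell cannot be told apart. Skeletal muscle markers, 17 of 17 detected and none called, summed to 52.4 to 542 CPM in Rb2 and 69.7 to 8101 CPM in PBS libraries; Acta1, skeletal muscle actin, ran from 0.118 to 66.3 CPM in Rb2 and from 1.24 to 1612 CPM in PBS libraries. With their mean as a covariate Slc25a1 was at -0.80 (adjusted p = 0.127), Thrsp at -0.59 (adjusted p = 0.117) and Fasn at -0.59 (adjusted p = 0.366).

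White adipocyte markers, of which 7 of 10 were tested and 1 was at 0, summed to 61.4 to 95.4 CPM in Rb2 and 59.2 to 341 CPM in PBS libraries, with none called. The hormone Lep had 11.2, 19.8 and 31.3 CPM in Rb2 1, 3 and 4, against 33.5, 8.39 and 14.4 CPM in PBS 1, 2 and 4. Endothelial (3 of 10), smooth muscle and pericyte (2 of 8), macrophage (4 of 10) and red blood cell (4 of 6) markers were called lower with Rb2. The share called lower over all genes tested was 5.11%. Of 10 fibroblast markers edgeR called 0, but 7 had an unadjusted p under 0.05, where 30% of all genes tested did. The median log2 fold change of the fibroblast markers was -0.66 (-0.51 for endothelial markers). They summed to 587 to 863 CPM in Rb2 and 854 to 1124 CPM in PBS libraries. Of 10 lymphocyte markers edgeR called 0. Unadjusted p was under 0.05 for 2 of these 10, below the share over all genes, and their median was -0.53. Mammary or liver markers, 3 of 6 tested and 2 at 0, summed to 31.8, 1.53 and 28.3 CPM in Rb2 1, 3 and 4, against 3.01, 0.796 and 1.90 CPM in PBS 1, 2 and 4. None was called. Unadjusted p was under 0.05 for 2 of 3, Alb (3.68) and Ttr (3.44), against 30% of all genes tested. Both were named after their values were seen. Their high values were in Rb2 1 and Rb2 4, the libraries in which Slc25a1 and Thrsp were lowest. The part of any of these cells in the lipogenic values was not tested. GC content moved with the fold changes. The median log2 fold change was -0.33 in the decile of genes richest in G and C, which holds Slc25a1, Fasn and Srebf1, against 0.26 in the poorest decile.

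The genes around the pathway were taken from 10 lists of its suppliers, partners and targets, 104 genes of which 99 were tested. Of these 9 rose and 7 fell, 16.2% against 10.4% of all genes, and their median log2 fold change was 0.04. Beside the counts of each list below stand the shares over all genes tested, 5.33% higher and 5.11% lower. Calls rested on few mice. Acss1, Fads2 and Arrdc4 were the 3 of these 16 that passed whichever library was left out, while 3 of 16 passed without PBS 1 or PBS 2, 4 without Rb2 1, 6 without Rb2 3, 11 without PBS 4 and 13 without Rb2 4.

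Upstream of cytosolic citrate, 2 of 13 genes rose and none fell (median 0.33). Of the genes that rose, citrate synthase, Cs, averaged 2265 ± 174 CPM in Rb2 and 1432 ± 296 CPM in PBS libraries (0.66, adjusted p = 0.0477, and up to 0.199 with 1 library left out). Pyruvate carrier subunit Mpc1 was at -0.08 (adjusted p = 0.800). Slc25a10, the dicarboxylate carrier, had 8.44, 15.9 and 12.4 CPM in Rb2 1, 3 and 4, against 81.4, 62.4 and 19.1 CPM in PBS 1, 2 and 4, apart but not past the threshold (-2.15 ± 0.62 SE, adjusted p = 0.0981). It is named after its value was seen.

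Among genes on either side of acetyl-CoA and malonyl-CoA 1 of 10 rose and none fell (median 0.09). That was Acss1, the mitochondrial acetyl-CoA synthetase, at 244, 251 and 206 CPM in Rb2 1, 3 and 4, against 87.7, 111 and 135 CPM in PBS 1, 2 and 4 (log2 fold change 1.07 ± 0.18 SE, adjusted p = 0.0104). Its cytosolic counterpart Acss2 had the opposite sign, as given above, and the difference between them was not tested. Cpt1b, a carnitine palmitoyltransferase that malonyl-CoA inhibits, averaged 639 ± 23.0 CPM in Rb2 and 406 ± 105 CPM in PBS libraries without passing (0.66, adjusted p = 0.0586). Cpt1a, another form of that enzyme, went the other way and did not pass either. It averaged 12.8 ± 1.89 CPM in Rb2 and 16.6 ± 0.888 CPM in PBS libraries (-0.38, adjusted p = 0.112), and is named after its value was seen. Mid1ip1, the paralogue of Thrsp, was at 0.20 (adjusted p = 0.559).

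In the NADPH list, which holds the pentose phosphate pathway, other malic enzymes and Idh1, 2 of 10 genes rose and 1 fell (median -0.16). Me3, the mitochondrial malic enzyme (0.61, adjusted p = 0.0311), and Rpe (0.65, adjusted p = 0.0484) rose, and Rpia (-0.52, adjusted p = 0.0411) fell. Rpe and Rpia are an epimerase and an isomerase of the pentose phosphate pathway. The first enzyme of that pathway, G6pdx, was at -0.16 (adjusted p = 0.621), Idh1 at 0.30 (adjusted p = 0.209) Tkt at -0.22 (adjusted p = 0.537) and Taldo1 at -0.16. Pgd, which yields NADPH in the same route, had 232, 343 and 174 CPM in Rb2 1, 3 and 4, against 435, 386 and 462 CPM in PBS 1, 2 and 4 (-0.78, adjusted p = 0.0633).

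Desaturases and elongases of fatty acids, listed as finishing enzymes, had 4 of 10 tested members lower and none higher (median -0.55). Elovl3, an elongase, fell (-1.74, adjusted p = 0.0214), as did the desaturases Fads2 (-1.03, adjusted p = 0.00727), Scd2 (-0.998, adjusted p = 0.0243) and Fads1 (-0.86, adjusted p = 0.0149). Scd1, the stearoyl-CoA desaturase of adipose tissue, did not pass the test. It had 37305, 30405 and 15089 CPM in Rb2 1, 3 and 4, against 29649, 22448 and 25289 CPM in PBS 1, 2 and 4 (0.10 ± 0.30 SE, adjusted p = 0.856), again with its lowest value in Rb2 4. Elovl6, which elongates palmitate, showed 582, 708 and 314 CPM in Rb2 1, 3 and 4, against 848, 630 and 650 CPM in PBS 1, 2 and 4 (-0.41, adjusted p = 0.362).

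**Figure D4:**
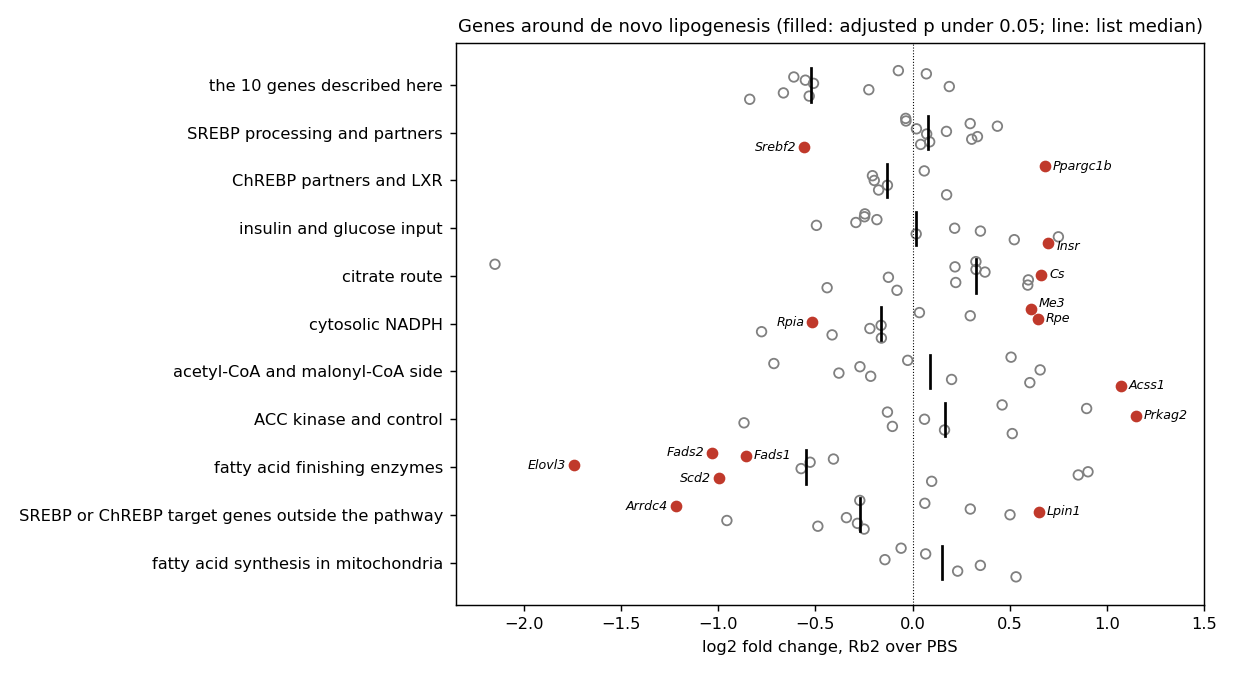
Log2 fold change, Rb2 over PBS (horizontal axis), of the tested genes in the 10 lists, 1 gene of the citrate route not drawn, and of the 10 lipogenic genes (rows). Genes past an adjusted p of 0.05 are filled and named, and a black line gives the median of each whole list. No lipogenic gene is filled, and the finishing enzymes have the most filled genes, 4.

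Of the genes that process SREBP or share its promoters, 1 of 12 fell and none rose (median 0.08). Srebf2, the sterol-responsive paralogue of Srebf1, had 21.6, 18.4 and 17.0 CPM in Rb2 1, 3 and 4, against 25.1, 26.8 and 32.0 CPM in PBS 1, 2 and 4 (-0.56, adjusted p = 0.0405); it did not pass when any 1 library was left out or with the GC and length offset. Scap, which escorts SREBP, was at 0.04 (adjusted p = 0.875), Insig1, which retains it, at 0.09 (adjusted p = 0.796), and Mbtps1, a protease that releases it, at 0.33 (adjusted p = 0.148). Among ChREBP partners and LXR genes 1 of 7 rose (median -0.13), Ppargc1b, a coactivator of SREBP-1 (0.68, adjusted p = 0.0294). Mlx, the dimer partner of ChREBP, was at 0.17 (adjusted p = 0.451), Nr1h3, LXR alpha, at -0.20 (adjusted p = 0.321) and Rxra at -0.21 (adjusted p = 0.366).

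Insulin and glucose input had 1 of 11 genes higher, the insulin receptor Insr, at 97.8, 80.6 and 67.6 CPM in Rb2 1, 3 and 4, against 54.1, 51.3 and 46.2 CPM in PBS 1, 2 and 4 (0.70 ± 0.15 SE, adjusted p = 0.0248). Akt2, a kinase of the insulin pathway, was at 0.35 (adjusted p = 0.174), and the glycolytic genes Pkm (-0.25, adjusted p = 0.361) and Pfkl (-0.25, adjusted p = 0.451) did not pass. The list of AMPK, the kinase that phosphorylates and inhibits acetyl-CoA carboxylase, holds its subunits and also Stk11, Brca1 and Trib3. Of the 9 genes in it 1 was higher, the AMPK subunit Prkag2 (1.15 ± 0.23 SE, adjusted p = 0.0211). Stk11, the upstream kinase LKB1, was at -0.13 (adjusted p = 0.558).

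Outside the pathway, 5 genes had profiles over the 6 libraries most like the mean profile of the 10, out of 7412 compared, by root mean square distance of centred log2 CPM. They were Tmem120b (distance 0.06), the phosphofructokinases Pfkp (0.11) and Pfkl (0.12), Dtx4 (0.12) and Hr (0.13). Tmem120b stood at 65.7, 77.2 and 38.8 CPM in Rb2 1, 3 and 4, against 88.5, 72.1 and 84.3 CPM in PBS 1, 2 and 4, lowest in Rb2 4. Of the 10 genes themselves Acaca (0.14) and Acss2 (0.15) lay closest to that mean and Acacb (0.38) and Srebf1 (0.35) farthest from it.

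**Figure D5:**
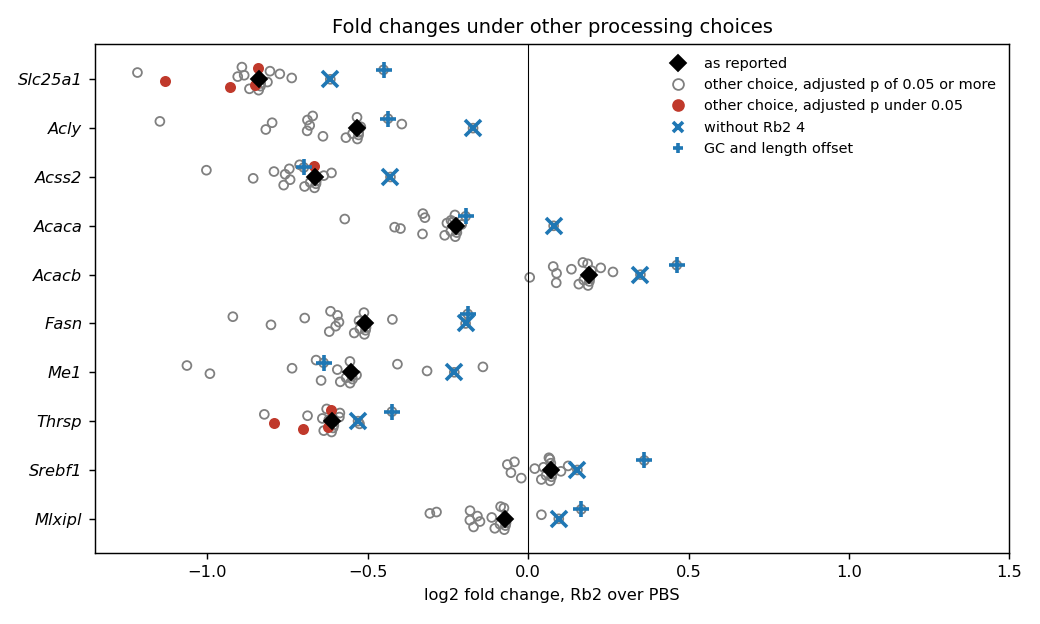
Log2 fold change, Rb2 over PBS (horizontal axis), of each gene as reported (diamonds) and under 18 other processing choices (circles, filled where adjusted p is under 0.05), with the values without Rb2 4 and with the GC and length offset marked. Filled circles occur in the rows of Slc25a1, Thrsp and Acss2 alone, and leaving out Rb2 4 brings every negative value closer to 0 or past it.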

How the data were processed

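Libraries of brown adipose tissue were made with a stranded TruSeq mRNA kit, per the labels' protocols. The deposited table holds raw counts per gene; Trimmomatic, HISAT2, Bowtie2, StringTie and mm10 are listed in the submitters' processing notes, and no source used here states the counting program or whether strand was used. Table columns name the group but cannot be tied to single sample titles.

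Genes were filtered with edgeR 4.0.16 (R 4.3.3; minimum count 10, minimum total 15), scaled by TMM and tested with the robust quasi-likelihood F test over all 6 libraries. P-values were adjusted by Benjamini-Hochberg over 16707 genes, with a threshold of 0.05. SEs were derived from the fitted change and its F statistic. DESeq2 1.42.0, limma 3.58.1 and other choices of scaling, filter, covariate and libraries served as alternatives. GC content and length came from the longest GENCODE transcript, found for 94.4% of tested genes. The test was checked on simulated counts.

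The 10 genes, the 10 pathway lists and the marker lists were chosen with earlier results of these data known. From each pathway list the text names every called gene (except 1 that is not reported here), the 2 with the highest mean CPM and a fixed set of partners (Scap, Insig1, Srebf2, Mlx, Nr1h3, Mid1ip1, Scd1, Elovl6, G6pdx, Idh1, Mpc1, Cs, Akt2). Marker lists are given by counts and sums, with Ucp1, Adipoq, Pparg, Lep and Acta1 named as defining genes. Slc25a10, Pgd, Oxsm, Cpt1a, Prdm16, Dio2, Cox8b, Plin1, Alb and Ttr were named after their values were seen.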

Additional observations from a re-analysis of the deposited data

How the results depend on the processing

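Genes called over all 16707 tested numbered 1743. The count was 303 without PBS 2, 334 without PBS 1, 548 without Rb2 1, 601 without Rb2 3, 1564 without PBS 4 and 2269 without Rb2 4. It was 911 with the skeletal muscle covariate, 3153 with DESeq2's Wald test, 3392 at an adjusted p under 0.1 and 564 with a 2-fold minimum. Leaving out both PBS 1 and PBS 2 keeps 1 PBS library, so no count is given for that fit. Of the 10 lipogenic genes 2 were called with library size alone, where 1271 of 16707 genes were. A count minimum of 50 called 2 of the 10 and 2163 of 13568 genes. DESeq2 called 3, against 21.5% of the genes to which it gave an adjusted p. At an adjusted p under 0.1 there were 3, against 3392 of 16707 genes. Leaving out 1 library gave 0 to 2. The 2 were Slc25a1 and Thrsp without Rb2 3, where 601 of 17272 genes were called. The median log2 fold change of the 10 genes stayed below 0 in 18 alternatives, between -0.87 and -0.18. Signs turned for 3 genes. Acaca was at 0.079 without Rb2 4, its leave-out values running from -0.42 to 0.079. Srebf1 was at -0.022 with library size alone, -0.065 without PBS 1 and PBS 2 and -0.043 with the muscle covariate, and between -0.054 (without Rb2 1) and 0.15 (without Rb2 4) with 1 library left out. Mlxipl was at 0.10 without Rb2 4, 0.04 without PBS 4 and 0.17 with the GC and length offset, its leave-out values starting at -0.18. None of these values passed the threshold, and the cause was not tested.

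With a replicate block on column numbers, of which only 1 and 4 occur in both groups, 96 genes were called, 0 of the 10 and 0 in every pathway list. Deviations of Rb2 1 and PBS 1 correlated at -0.234 and those of Rb2 4 and PBS 4 at -0.260 across genes. Pairs with unlike numbers ran from -0.506 (Rb2 1 and PBS 2) to 0.522 (Rb2 1 and PBS 4). Deviations within a group of 3 are tied to each other, so these correlations cannot decide whether the numbers pair mice. The main fit used no pairs.

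Calls in the pathway lists moved as follows. Leaving out 1 library gave 0 to 0 for SREBP processing, 0 to 1 for ChREBP partners and LXR, 0 to 2 for insulin and glucose input, 0 to 5 for the citrate route, 0 to 2 for NADPH, 1 to 2 for the acetyl-CoA and malonyl-CoA side, 0 to 2 for AMPK, 1 to 4 for finishing enzymes, 1 to 3 for targets outside the pathway and 0 to 1 for mitochondrial synthesis. The fit without both PBS 1 and PBS 2, which keeps 1 PBS library, is left out here. DESeq2 called 21.5% of all genes to which it gave an adjusted p. It called 5 of 13 for the citrate route, 4 of 10 for the acetyl-CoA side, 3 of 9 for the AMPK list and 2 of 6 for mitochondrial synthesis. An adjusted p under 0.1 was met by 3392 of 16707 genes. At that threshold there were 2 of 12 for SREBP processing, 2 of 11 for insulin and 5 of 13 for citrate. The acetyl-CoA side had 4 of 10, the AMPK list 2 of 9 and mitochondrial synthesis 2 of 6. A 2-fold minimum left 0 for SREBP processing, ChREBP partners, insulin, citrate and NADPH, 2 for finishing enzymes and 1 for outside targets. The offset gave 0 for SREBP processing, 2 for ChREBP partners, 1 for NADPH and 2 for acetyl-CoA. The muscle covariate gave 0 for insulin and NADPH and 1 for citrate and outside targets. Library size alone gave 0 for ChREBP partners and citrate and 2 for acetyl-CoA. Upper-quartile factors gave 1 for citrate and outside targets and 2 for acetyl-CoA, as did limma-voom for acetyl-CoA. A count minimum of 50 gave 3 there, and no filter 1 for citrate. Over all genes the offset called 1322 of 15779, upper-quartile factors 1657 of 16707 and no filter 1583 of 24703. With 3 mice a group, the changes of Fasn and Acly were not separable from the spread of these genes between mice.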

Other observations

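Among 11 tested targets of SREBP or ChREBP outside the pathway 1 rose and 1 fell (edgeR, median log2 fold change -0.27). Arrdc4, an arrestin-domain gene induced by glucose, was at 5.27, 7.14 and 6.27 CPM in Rb2 1, 3 and 4, against 17.5, 12.5 and 13.4 CPM in PBS 1, 2 and 4 (-1.22 ± 0.18 SE, adjusted p = 0.00673). Txnip, a related gene that ChREBP is also known to drive, had 1297, 825 and 634 CPM in Rb2 1, 3 and 4, against 755, 648 and 841 CPM in PBS 1, 2 and 4, with overlapping groups (0.30, adjusted p = 0.456). Lpin1, a phosphatidate phosphatase, rose (0.65, adjusted p = 0.0467), and Gpam, which starts glycerolipid synthesis, was at 0.50 (adjusted p = 0.137).

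The separate fatty acid synthesis pathway of mitochondria had 0 of 6 genes called by edgeR, 2 at an unadjusted p under 0.05 and 2 by DESeq2. Over all genes tested 30% had an unadjusted p under 0.05. DESeq2 called 21.5% of the genes to which it gave an adjusted p. Oxsm, the condensing enzyme of the mitochondrial pathway, stood at 28.2, 23.5 and 20.7 CPM in Rb2 1, 3 and 4, against 16.2, 14.5 and 19.4 CPM in PBS 1, 2 and 4. Its groups were apart but short of the threshold (0.53, adjusted p = 0.0627). Mecr (0.23) and the acyl carrier protein Ndufab1 (0.07) had overlapping groups.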
